A study of Mus musculus with 8 samples.

Results

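The genes described here are 9 mouse genes of macrophage identity and lipid handling: Adgre1, Maf, Trem2, Gpnmb, Spp1, Lgals3, Lpl, Fabp4 and Fabp5. They were chosen by symbol from the 55450 genes of the table of replicates 1 to 3, and all 9 were also among the 24848 genes of a separately made table that holds replicate 4. All 9 passed the filter on low values, 1 FPKM or more in 3 or more of the first table's 6 libraries, and are among the 11387 genes tested. Levels are in FPKM, fragment counts adjusted for the length of a transcript and the size of its library, so genes can be set beside each other per length.

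Messenger RNA came from mouse bone marrow cells of animals with dry eye of Sjögren's syndrome, an autoimmune disease of tear and salivary glands, that were induced to become dendritic cells. The 4 libraries of the S100A8/A9 group received recombinant S100A8/A9, an inflammatory protein pair released by myeloid cells, and the 4 libraries of the vehicle group received phosphate-buffered saline. The disease of the donors is common to both groups, and no healthy animals are compared. Mouse strain, age, dose and duration are not given in the labels, nor is it said that libraries of a group came from separate animals or cultures, so p-values measure the spread between these libraries, which may be technical. The cell type field names dendritic cells, whereas the sample titles use an abbreviation customary for macrophages.

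Macrophages and dendritic cells both grow out of bone marrow under myeloid growth factors and share much of their expression program. Adgre1 and Maf belong to the macrophage side. Macrophages that clear lipid or dead cells are known to switch on a shared set of genes, often called the lipid-associated program, in which the lipid-sensing receptor TREM2 stands beside GPNMB, osteopontin, galectin-3, lipoprotein lipase and the fatty acid binding proteins.

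Each library of replicates 1 to 3 reached 1 FPKM for 11180 to 11487 genes, with depths roughly estimated at 22800000 to 25700000 reads. Replicate 4 had about 33400000 reads with S100A8/A9 and 31900000 with vehicle. Correlations of log2(FPKM + 1) were 0.982 to 0.993 within the first table and 0.929 to 0.936 between the tables, so tests use replicates 1 to 3 and replicate 4 stands beside them. Of 19 dendritic cell markers, 12 were tested. Cd74, the class II invariant chain, had 3823, 2826 and 2779 FPKM with S100A8/A9 and 3790, 2752 and 2530 FPKM with vehicle. The class II gene H2-Aa had 714, 525 and 459 FPKM with S100A8/A9 and 713, 533 and 442 FPKM with vehicle. Cd209a was listed at 0, and Flt3, Dpp4, Xcr1, Clec9a, Kmo and Bcl11a, markers of conventional dendritic cell lineages or their relatives, stayed below 1 FPKM in all 6 libraries. Other markers of the list, named here after their values were seen, were expressed. Over the 6 libraries Ccr7 had 141 to 227 FPKM, Itgax 47.2 to 66.9 FPKM and Irf8 29.0 to 51.3 FPKM. Irf4 had 18.2 to 31.2 FPKM, Batf3 6.97 to 12.3 FPKM and Zbtb46 2.13 to 3.62 FPKM.

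A gene was called where its p-value from limma, a linear model fitted across all tested genes, was below 0.05 after Benjamini-Hochberg adjustment. Across the 9 genes, none was called for S100A8/A9 against vehicle in limma's fit of the groups, in which 0.0% of all tested genes were called. Between the replicate numbers shared by the 2 groups, 6 of the 9 differed in limma's F test, which called 12.7% of all tested genes. Those 6 were Adgre1, Maf, Gpnmb, Spp1, Fabp4 and Fabp5, each highest in replicate 1 of both groups, and 4.41% of all tested genes were both called and highest there. In each group the order of mean levels was Lgals3, Gpnmb, Spp1, Fabp5, Lpl, Trem2, Adgre1, Fabp4 and Maf. Neighbours whose ranges overlapped in both groups were Gpnmb with Spp1 and Lpl with Trem2, and Fabp4 overlapped Maf in vehicle libraries. The levels ran from 1229 ± 79.6 FPKM with S100A8/A9 and 1160 ± 72.5 FPKM with vehicle for Lgals3 down to 5.63 ± 1.99 FPKM with S100A8/A9 and 5.81 ± 2.21 FPKM with vehicle for Maf (SD, n = 3 each). The plot of FPKM by library shows each value.

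**Figure D1:**
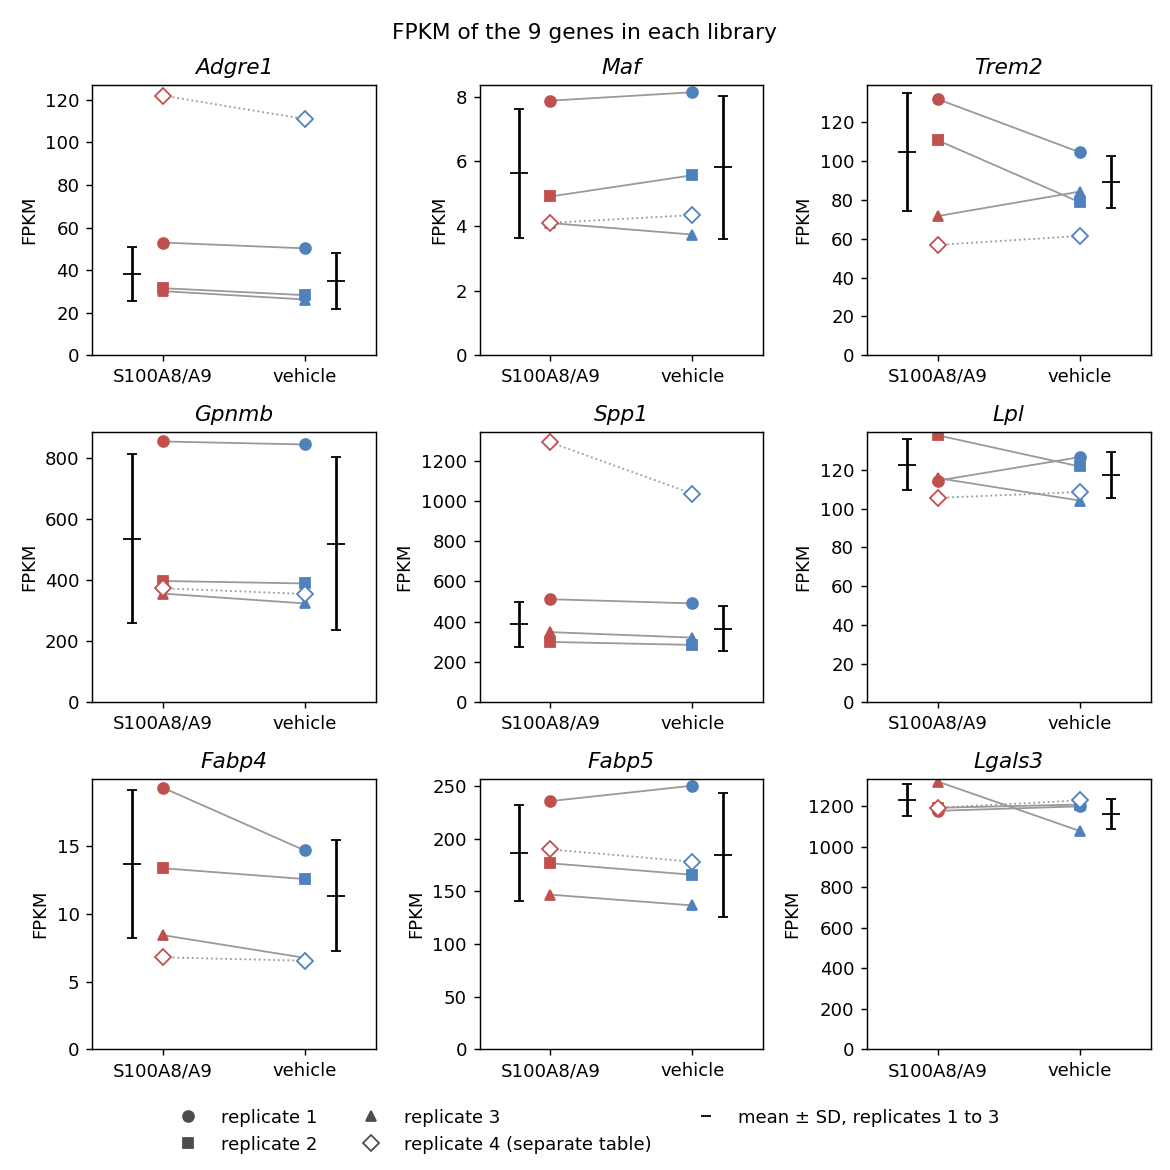
FPKM of the 9 genes (vertical axes, from 0) in S100A8/A9 libraries (left, red) and vehicle libraries (right, blue); filled symbols are replicates 1 to 3, open diamonds are replicate 4 from the separate table, lines join libraries of the same number, and bars show the mean ± SD of replicates 1 to 3. Circles (replicate 1) lie highest of replicates 1 to 3 in both groups for 7 genes, the exceptions being Lpl and Lgals3, and the lines between the groups are mostly flat.

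Adgre1, on chromosome 17 at chr17:57358691-57483527 on the plus strand of mm10 (ENSMUSG00000004730), encodes F4/80, the adhesion receptor most used to mark mouse macrophages. It had 53.0, 31.5 and 30.1 FPKM in S100A8/A9 replicates 1 to 3, and 50.2, 28.3 and 26.2 FPKM in the vehicle libraries of the same numbers. Both replicate 1 libraries stood above the other 4, and the groups overlapped. The S100A8/A9 library was the higher in each pair, by 1.05, 1.12 and 1.15-fold, and by 1.10-fold in replicate 4. In limma the log2 change was 0.14 (SE 0.29, 95% interval -0.55 to 0.83), which was not called (adjusted p = 1.00). Fewer cells of a type and less RNA of a gene per cell cannot be told apart in these bulk libraries, here or in the results that follow.

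Maf encodes a transcription factor that sets the identity of macrophages and restrains their division. Its gene (ENSMUSG00000055435) lies on the minus strand at chr8:115682942-115707794, where it overlaps Gm15655, listed at 0. Maf was the least abundant of the 9, with 7.88, 4.91 and 4.09 FPKM in S100A8/A9 replicates 1 to 3 and 8.14, 5.57 and 3.74 FPKM in vehicle replicates 1 to 3. It was highest in replicate 1 and lowest in replicate 3 of both groups. The S100A8/A9 library was the higher in 1 of 3 pairs, and the log2 change was -0.03 (SE 0.28, 95% interval -0.69 to 0.63).

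Trem2 (ENSMUSG00000023992, chr17:48346401-48354147, plus strand) encodes a receptor for lipids, lipoproteins and dying cells. It had 132, 111 and 71.6 FPKM in S100A8/A9 replicates 1 to 3, against 105, 78.8 and 84.2 FPKM in vehicle replicates 1 to 3. The S100A8/A9 library was the higher in pairs 1 and 2, by 1.26 and 1.40-fold, and the lower in pair 3, at 0.851-fold, and in replicate 4, at 0.925-fold. The log2 change was 0.20 (SE 0.23, 95% interval -0.34 to 0.73). Tyrobp, which encodes DAP12, the adaptor through which TREM2 signals, had 262, 219 and 223 FPKM with S100A8/A9 and 267, 211 and 177 FPKM with vehicle. Its treatment change was not called either.

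Gpnmb (ENSMUSG00000029816, chr6:49036546-49070929, plus strand) encodes a membrane glycoprotein of lysosome-loaded macrophages and melanocytes. It had 853, 397 and 356 FPKM in S100A8/A9 replicates 1 to 3, and 843, 389 and 323 FPKM in vehicle replicates 1 to 3. Replicate 1 was 2.27 times the mean of replicates 2 and 3 with S100A8/A9 and 2.37 times with vehicle. In both replicate 1 libraries it was the gene of rank 29 among the 24388 genes of both tables. Within pairs the libraries were nearly level, at 1.01, 1.02 and 1.10-fold, and 1.05-fold in replicate 4. Mitf, a transcription factor known to drive Gpnmb, had 12.6, 11.2 and 11.1 FPKM with S100A8/A9 and 11.96, 11.3 and 10.3 FPKM with vehicle, and neither its treatment change nor its replicate number term was called.

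Spp1 (ENSMUSG00000029304, chr5:104435118-104441050, plus strand) encodes osteopontin, a secreted adhesive phosphoprotein of macrophages and bone. It had 512, 300 and 349 FPKM in S100A8/A9 replicates 1 to 3 and 491, 285 and 321 FPKM in vehicle replicates 1 to 3. Here replicate 2, not 3, was the lowest of both groups. The S100A8/A9 library was the higher in each pair, by 1.04, 1.05 and 1.09-fold, and by 1.25-fold in replicate 4, where the estimated reads were 71008 with S100A8/A9 and 54428 with vehicle. The annotated gene Gm42793 overlaps Spp1 and reached at most 2.08 FPKM. No strand marking is stated, so reads of overlapping genes cannot be told apart. Cd44, whose protein binds osteopontin, ran the other way across the numbers, with 118, 174 and 179 FPKM with S100A8/A9 and 121, 167 and 171 FPKM with vehicle.

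Lgals3 (ENSMUSG00000050335, chr14:47367751-47386160, plus strand) encodes galectin-3, a sugar-binding lectin recruited to damaged lysosomes. It was the most abundant of the 9 in replicates 1 to 3, and ranked 18 to 24 among 24388 genes in all 8 libraries. It had 1176, 1191 and 1320 FPKM in S100A8/A9 replicates 1 to 3, against 1198, 1207 and 1077 FPKM in vehicle replicates 1 to 3. The S100A8/A9 library was the higher only in pair 3, by 1.23-fold, the other 3 pairs lying between 0.972 and 0.987-fold. Its replicate span, the log2 distance between the highest and the lowest replicate number, was 0.014 in FPKM as deposited, but 0.092 to 0.129 under 3 other scalings and 0.335 under quantile normalization, and it was not called under any of them.

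Promoter sequences from RefSeq (GRCm38.p6) were found for 4 of the 9 genes, and the windows of Gpnmb, Spp1 and Trem2 are shown, because these 3 genes of the lipid-associated program had motif matches and 2 of them differed between replicate numbers. Each runs 5′ to 3′ on the plus strand, from 250 bases before an annotated start to 30 bases after it, and capitals mark motif matches.
Gpnmb, chr6:49036268-49036547: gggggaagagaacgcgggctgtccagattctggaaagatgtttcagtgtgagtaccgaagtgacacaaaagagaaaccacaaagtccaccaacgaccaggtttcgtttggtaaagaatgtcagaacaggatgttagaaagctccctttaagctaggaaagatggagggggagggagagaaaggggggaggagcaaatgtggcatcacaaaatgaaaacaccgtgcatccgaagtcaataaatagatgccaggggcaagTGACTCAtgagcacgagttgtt
Spp1, chr5:104434861-104435140: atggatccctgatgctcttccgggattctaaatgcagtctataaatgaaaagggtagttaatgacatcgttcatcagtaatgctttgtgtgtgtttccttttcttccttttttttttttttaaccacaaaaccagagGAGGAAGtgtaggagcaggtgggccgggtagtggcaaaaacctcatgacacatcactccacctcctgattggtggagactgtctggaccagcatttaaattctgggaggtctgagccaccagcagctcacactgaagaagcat
Trem2, chr17:48346151-48346430: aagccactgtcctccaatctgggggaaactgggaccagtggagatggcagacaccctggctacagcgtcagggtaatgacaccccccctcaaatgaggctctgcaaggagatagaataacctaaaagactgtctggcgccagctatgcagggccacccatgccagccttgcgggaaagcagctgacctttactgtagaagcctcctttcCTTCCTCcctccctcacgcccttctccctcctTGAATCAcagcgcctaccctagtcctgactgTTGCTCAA
The Gpnmb window held TGACTCA, an AP-1 match, at position 9 after the start. The Spp1 window held GAGGAAG, a PU.1 core, 113 bases before the start. The Trem2 window held the PU.1 core on the other strand (CTTCCTC), the AP-1 match TGAATCA and the C/EBP match TTGCTCAA. PU.1 and C/EBP proteins are lineage factors of myeloid cells. Motifs were searched on both strands in windows that reach 50 bases past the start, and no match overlapped another. A second Spp1 start had 1 match, TTGCAGAA, and the Lgals3 window had none. The PU.1 core GAGGAAG was in 13.6% of all 32817 promoters of that length, the AP-1 motif TGANTCA in 7.81% and the C/EBP motif TTGCNNAA in 10.8%. The E-boxes CACGTG, in 7.15% of promoters, and CATGTG, in 14.2%, and the MAF site core TGCTGA, in 19.5%, were also searched and had no match in these windows. A match is not evidence of binding.

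Lpl (ENSMUSG00000015568, chr8:68880491-68907448, plus strand) encodes lipoprotein lipase, which frees fatty acids from triglyceride-rich lipoproteins. It had 115, 138 and 116 FPKM in S100A8/A9 replicates 1 to 3 and 127, 122 and 104 FPKM in vehicle replicates 1 to 3. It was the higher with S100A8/A9 in pairs 2 and 3, and the lower in pair 1 and in replicate 4. Its mean differed by less than the SD of either group, with 122.7 ± 13.2 FPKM with S100A8/A9 and 118 ± 11.8 FPKM with vehicle (SD, n = 3 each). Lmf1, a factor that lipases need to mature, had 9.57, 7.26 and 9.33 FPKM with S100A8/A9 and 8.62, 8.02 and 7.40 FPKM with vehicle. Gpihbp1, the endothelial anchor of the enzyme, was listed at 0 in all 6 libraries.

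Fabp4 and Fabp5 encode cytosolic carriers of fatty acids, best known from fat cells and macrophages for Fabp4 and from skin and macrophages for Fabp5. Fabp4 (ENSMUSG00000062515, chr3:10204088-10208576, minus strand) had 19.3, 13.4 and 8.44 FPKM in S100A8/A9 replicates 1 to 3, against 14.7, 12.6 and 6.76 FPKM in vehicle replicates 1 to 3. It was the higher with S100A8/A9 in each pair, by 1.32, 1.06 and 1.25-fold, and by 1.04-fold in replicate 4. Its log2 change of 0.25 was the largest of the 9 (SE 0.34, 95% interval -0.54 to 1.03). Fabp5 (ENSMUSG00000027533, chr3:10012548-10016607, plus strand) had 236, 177 and 147 FPKM with S100A8/A9 and 250, 166 and 137 FPKM with vehicle. Its pairs stood at 0.942, 1.07 and 1.07-fold, S100A8/A9 over vehicle, and at 1.07-fold in replicate 4. Both carriers were highest in replicate 1 and lowest in replicate 3 of each group. Pparg, the nuclear receptor that drives Fabp4, was low, at 1.87, 2.70 and 1.81 FPKM with S100A8/A9 and 1.74, 2.92 and 1.74 FPKM with vehicle. Adipocyte and stromal markers, another source of Fabp4 and Lpl transcripts, were below 1 FPKM in all 6 libraries for 12 of 12 genes, with Cidec, Lep and Lum at 0 and sums of 0.881 to 1.31 FPKM with S100A8/A9 and 0.924 to 1.19 FPKM with vehicle.

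Setting S100A8/A9 against vehicle addresses which genes respond to the protein pair. In the fit of the groups, 0 of the 9 genes and 0 of all 11387 genes (0.0%) were called by limma's two-sided test, and 344 genes had an unadjusted p under 0.05. With the replicate number as a block, which compares libraries within pairs, limma called 59 genes (0.518%), none of them among the 9, and it called 0 when the replicate 4 pair was added to that fit. With that pair, the smallest adjusted p of the 9 in limma was 0.43, for Adgre1, and the next was 0.53, for Fabp4. Without that pair, the smallest was 0.47, for Fabp4, and the next was 0.65, for Adgre1. The intervals that follow are also from the block fit without that pair. The block's 95% interval of the log2 change, not adjusted for the number of genes, ran from 0.05 to 0.44 for Fabp4 and from -0.0038 to 0.29 for Adgre1. For the other 7 genes these intervals also held 0, and the upper bounds were at most 0.51, that of Trem2. The lower bounds were at least -0.24, that of Maf.

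**Figure D2:**
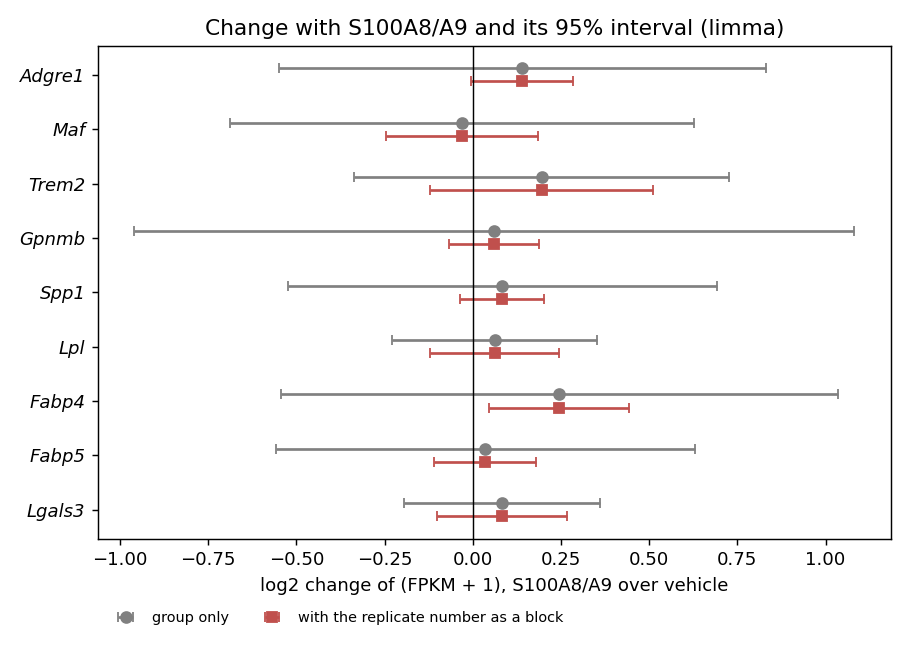
Log2 change of FPKM + 1, S100A8/A9 over vehicle (horizontal axis), for each of the 9 genes, with points for the limma estimate and bars for the 95% interval; grey uses the groups alone and red has the replicate number as a block. Grey intervals all cross 0, red ones are narrower, and the red interval of Fabp4, 0.05 to 0.44, lies above 0.

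Of the 9 genes, 4 were higher with S100A8/A9 in each of the 3 pairs (Adgre1, Gpnmb, Spp1 and Fabp4), as were 19.4% of all tested genes. The same 4 were higher in the replicate 4 pair too, where 11.7% of the 11180 tested genes found in both tables were higher in all 4 pairs. None of the 9 had groups without overlap, against 6.65% of all tested genes. The median log2 change of the 9 was 0.08, with 8 of 9 above 0, and the median over all tested genes was 0.02, with 6784 of 11387 above 0. Under upper-quartile scaling 5 of the 9 were above 0 and under quantile normalization 6. The pairs of replicate 3 also differed over all genes, with a median log2 ratio of 0.081, S100A8/A9 over vehicle, beside -0.007, 0.008 and 0.015 in replicates 1, 2 and 4.

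The replicate span, the distance on the log2 scale between the highest and the lowest of the 3 replicate numbers, each averaged over its 2 libraries, was 1.32 for Gpnmb, 1.06 for Fabp4, 0.88 for Maf, 0.85 for Adgre1, 0.78 for Spp1, 0.77 for Fabp5, 0.59 for Trem2, 0.24 for Lpl and 0.01 for Lgals3. Limma's F test of the replicate number, with group as a covariate, called 6 of the 9, and 12.7% of all genes tested. Among genes averaging 5 FPKM or more, where all 9 lie, the share was 17.5%. Adjusted p-values of limma's F test were 0.000466 for Gpnmb, 0.00254 for Spp1, 0.00275 for Adgre1, 0.00494 each for Fabp4 and Fabp5, and 0.0120 for Maf. They were 0.110 for Trem2, 0.250 for Lpl and 0.991 for Lgals3. Replicate 1 was the highest number in both groups for 7 of the 9, against 18.0% of all genes. All 6 called genes had replicate 1 highest, and 4.41% of all genes had both properties.

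**Figure D3:**
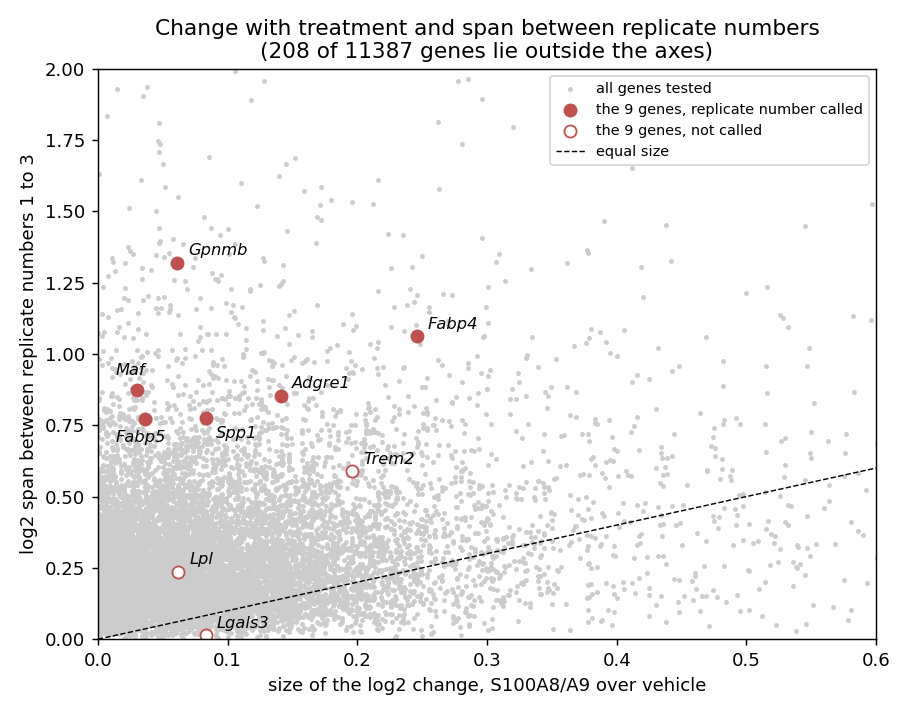
Each grey point is 1 of the tested genes, with the size of its log2 change with S100A8/A9 on the horizontal axis and its log2 span between replicate numbers on the vertical axis; red points are the 9 genes, filled where the replicate number was called, and the dashed line marks equal size. Gpnmb is the highest of the 9 at 1.32, and Lgals3, at 0.014, the lowest; 208 genes lie outside the axes.

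These calls rest on few libraries. Leaving out replicate 1 left 1 of the 9 called, Fabp4, while leaving out replicate 2 gave 7, with Trem2 added. Leaving out replicate 3 gave 4 (Adgre1, Gpnmb, Spp1 and Fabp5). Over all 11387 genes tested, the calls moved too, from 1450 to 314 without replicate 1, 1833 without replicate 2 and 526 without replicate 3. With no filter on low values the test covered 32091 genes and called 18, none of them among the 9. Adjusted p-values of limma's F test then ran from 0.0626 for Gpnmb to 0.131 for Maf among the 6.

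The other macrophage identity genes varied with the same numbers. Of 23 such genes, 17 were tested and 14 were called for the replicate number (82.4%, beside 12.7% of all tested genes). Replicate 1 was highest in both groups for 13 of these 14, while 0 of the 17 rose and 0 fell with S100A8/A9 in either fit. The mean log2(FPKM + 1) of the 23 genes was 4.59, 4.19 and 3.86 in S100A8/A9 replicates 1 to 3 and 4.52, 4.12 and 3.81 in vehicle replicates 1 to 3. Lyz2, which encodes lysozyme and has a close relative in Lyz1, had 5146, 4049 and 3290 FPKM with S100A8/A9 and 5013, 3789 and 3128 FPKM with vehicle. Cd68, a lysosomal protein of phagocytes, had 474, 364 and 324 FPKM with S100A8/A9 and 465, 372 and 305 FPKM with vehicle. The complement genes C1qa, C1qb and C1qc and the mannose receptor gene Mrc1, named here after their values were seen, had spans of 2.11, 2.52, 2.49 and 2.52 on the log2 scale, wider than that of any of the 9. Mrc1 had 74.4, 31.3 and 12.3 FPKM with S100A8/A9 and 75.0, 33.1 and 12.1 FPKM with vehicle. Cd14, a co-receptor for bacterial lipid, was the called gene that went the other way, with 109, 211 and 347 FPKM with S100A8/A9 and 94.1, 194 and 278 FPKM with vehicle. Genes of tissue-resident macrophages, Cd163, Vsig4, Folr2, Marco and Lyve1, were below 1 FPKM in replicates 1 to 3, and Timd4 was at 0 there. In replicate 4 Marco had 3.37 FPKM with S100A8/A9 and 2.33 FPKM with vehicle.

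Of 20 genes of TREM2 signaling and the lipid-associated program, all were tested and 12 were called for the replicate number. That is 60.0%, beside 12.7% of all tested genes and 17.5% of those averaging 5 FPKM or more. Of these 12, 11 had replicate 1 highest, and none of the 20 was called for S100A8/A9. The other called gene, Plcg2, which encodes a phospholipase that acts below TREM2 and is named after its values were seen, had 24.7, 30.4 and 33.7 FPKM with S100A8/A9 and 25.5, 33.2 and 33.0 FPKM with vehicle. The lysosomal proteases Ctsd and Ctsb were the most abundant. Ctsd had 2161, 1729 and 1740 FPKM with S100A8/A9 and 2210, 1749 and 1622 FPKM with vehicle. Ctsb had 910, 680 and 523 FPKM with S100A8/A9 and 898, 662 and 474 FPKM with vehicle. Apoe, which encodes the lipid carrier apolipoprotein E and is named after its values were seen, had a span of 3.03, the widest of the macrophage identity and lipid-associated lists, with 238, 103 and 31.9 FPKM with S100A8/A9 and 263, 106 and 27.8 FPKM with vehicle.

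**Figure D4:**
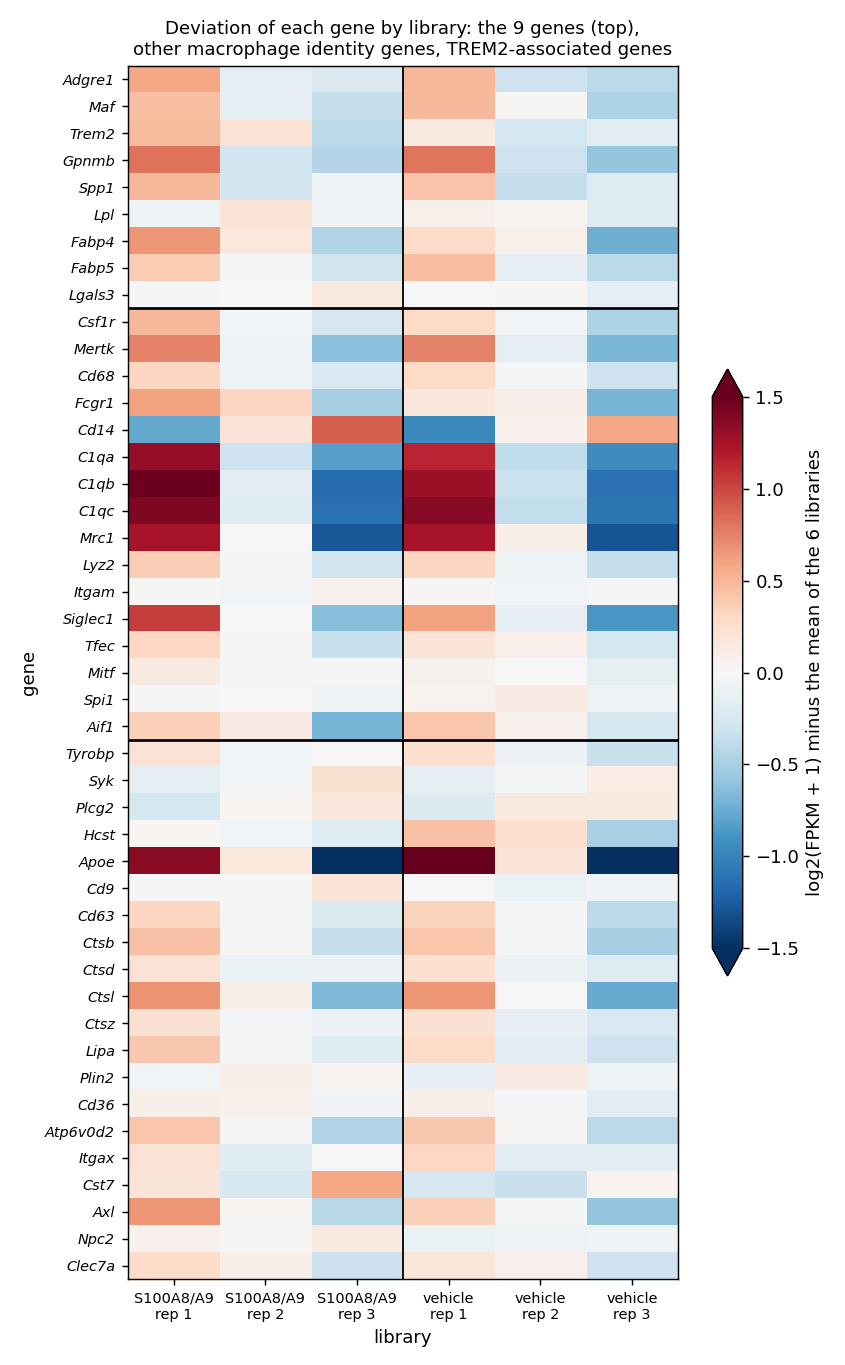
Log2(FPKM + 1) of each gene minus its mean over the 6 libraries (color scale, red above and blue below the mean, clipped at 1.5), for the 9 genes at the top, macrophage identity genes in the middle and the genes of TREM2 signaling and the lipid-associated program below, with S100A8/A9 libraries left of vehicle libraries. The replicate 1 columns are mostly red and the replicate 3 columns mostly blue in both groups. Cd14, Plcg2, Syk and Plin2 are lowest in replicate 1 of both groups, and Lpl and Lgals3 are pale.

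Of 34 genes of fatty acid uptake, storage and oxidation, 31 were tested and 7 were called for the replicate number. That is 22.6%, beside 12.7% of all tested genes and 17.5% of those averaging 5 FPKM or more. Of these 7, 1 had replicate 1 highest in both groups. None was called for S100A8/A9. Plin2, which coats lipid droplets, had 241, 263 and 253 FPKM with S100A8/A9 and 228, 271 and 234 FPKM with vehicle. Cd36, a fatty acid and lipoprotein receptor, had 217, 216 and 198 FPKM with S100A8/A9 and 217, 202 and 183 FPKM with vehicle. The median span of the 31 genes was 0.30 on the log2 scale, beside 0.24 for Lpl, 1.06 for Fabp4 and 0.77 for Fabp5.

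Over the 6 libraries the 9 genes fell into those that moved together and those that did not. Fabp5, Adgre1, Maf, Gpnmb and Fabp4 had Pearson correlations of 0.92 to 0.98 with the mean profile of all 9, which each gene helps to make. Spp1 had 0.80, Trem2 0.78, Lpl 0.46 and Lgals3 0.20. The closest pair was Adgre1 with Gpnmb, at 0.99. These points share libraries and replicate numbers and are few. Of 6453 other genes averaging 5 FPKM or more, those most like the mean profile over the 6 libraries were Oat (0.997), Ssr2 (0.996), Rab1a (0.995), Gmppa (0.994) and Ctnnb1 (0.994). The single most alike gene was Vwf for Gpnmb (0.998), Trf for Maf (0.996), mt-Ty for Adgre1 (0.998), Mmp8 for Spp1 (0.994), Fam3c for Fabp4 (0.999), Mylip for Fabp5 (0.998), Asxl2 for Trem2 (0.988), Isca2 for Lpl (0.985) and Uba1 for Lgals3 (0.973). Each of these correlations was picked from the top of 6453 over 6 libraries. How high such a pick runs by chance was not tested. Trf, the transferrin gene, had 210, 108 and 77.6 FPKM with S100A8/A9 and 213, 114 and 69.3 FPKM with vehicle.

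Markers of other cells moved with the replicate numbers too, and their part in the results above was not tested. Over all tested genes, 12.7% were called for the replicate number. Of 14 neutrophil markers 5 were tested and 4 were called for the replicate number, 2 with replicate 1 highest in both groups, as for Adgre1, and 2 with it lowest. Mmp8, which encodes a collagenase, had 98.3, 60.5 and 72.0 FPKM with S100A8/A9 and 98.6, 59.8 and 68.5 FPKM with vehicle. S100a8 had 11.4, 52.5 and 113 FPKM with S100A8/A9 and 9.72, 44.1 and 125 FPKM with vehicle. Ly6g, Camp, Ngp, Ltf, Mpo, Elane and Cxcr2 were below 1 FPKM in these 6 libraries. The summed neutrophil markers ranged over 125 to 219 FPKM with S100A8/A9 and 125 to 228 FPKM with vehicle. All 4 tested erythroid markers of 6 were called. Hba-a1, an alpha globin gene, had 2.67, 2.03 and 52.7 FPKM with S100A8/A9 and 1.28, 3.87 and 45.9 FPKM with vehicle. Hbb-bs, a beta globin gene, had 0.778, 2.55 and 34.8 FPKM with S100A8/A9 and 0.845, 2.96 and 41.5 FPKM with vehicle, and erythroid sums ranged over 4.59 to 115 FPKM with S100A8/A9 and 3.21 to 129 FPKM with vehicle.

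Of 8 monocyte markers 7 were tested and 4 were called for the replicate number, with sums of 9510 to 20350 FPKM with S100A8/A9 and 9484 to 17440 FPKM with vehicle, most of it from Chil3. Chil3, a chitinase-like gene, had 20200, 11660 and 9325 FPKM with S100A8/A9 and 17340, 11600 and 9235 FPKM with vehicle, and Ly6c2 had 111, 186 and 110 FPKM with S100A8/A9 and 62.2, 144 and 178 FPKM with vehicle. The summed level of this list was thus highest in replicate 1 of both groups. Of the 4 called genes, however, 1 had replicate 1 highest in both groups and 3 did not. Hp ran the other way, with 9.92, 15.5 and 32.5 FPKM with S100A8/A9 and 8.68, 15.0 and 26.9 FPKM with vehicle. Averaged over its genes as log2(FPKM + 1), the list stood lowest in replicate 1. These averages were 4.63, 4.87 and 4.93 with S100A8/A9 and 4.43, 4.91 and 5.02 with vehicle. Of 8 osteoclast markers 6 were tested and 4 called, Calcr being below 1 FPKM, with sums of 138 to 197 FPKM with S100A8/A9 and 129 to 197 FPKM with vehicle. The proton pump subunit gene Atp6v0d2 had 109, 82.7 and 59.2 FPKM with S100A8/A9 and 109, 82.9 and 61.3 FPKM with vehicle, and Acp5, which encodes a phosphatase of osteoclasts and macrophages, had 60.5, 37.3 and 27.0 FPKM with S100A8/A9 and 57.3, 37.0 and 21.9 FPKM with vehicle. Both were highest in replicate 1, whereas the other 2 called genes, Mmp9 and Ctsk, were lowest there in both groups. Mmp9 had 1.41, 4.31 and 8.54 FPKM with S100A8/A9 and 1.15, 4.6 and 9.06 FPKM with vehicle. The osteoclast averages, taken as for the monocyte list, were lowest in replicate 1 too. They stood at 2.92, 3.04 and 3.2 with S100A8/A9 and 2.94, 3.07 and 3.12 with vehicle. Of the 12 tested dendritic cell markers 9 were called. The sums were 4307 to 5986 FPKM with S100A8/A9 and 3962 to 5950 FPKM with vehicle, most of it from Cd74. Replicate 1 was highest in both groups for 6 of the called genes, Itgax, Ciita, Cd74 and the class II genes H2-Ab1, H2-Aa and H2-Eb1. The other 3, Ccr7, Irf4 and Irf8, were highest in replicate 3 of both groups. Ccr7 had 158, 144 and 227 FPKM with S100A8/A9 and 160, 141 and 207 FPKM with vehicle. Endothelial markers had 1 call among 3 tested of 7, with Vwf at 8.90 to 15.6 FPKM, Kdr at 4.84 to 7.41 FPKM and Cldn5 at 0 over the 6 libraries. Lymphocyte markers had none among 4 of 9, with Trac at 2.25 to 5.16 FPKM and Cd3e at 0.934 to 1.64 FPKM. None of 7 mast cell and basophil markers was tested, and Mcpt4 was at 0 in these libraries. The sums of these 7 were highest in replicate 1, with 3.52, 1.16 and 1.67 FPKM with S100A8/A9 and 5.47, 1.24 and 0.857 FPKM with vehicle. No marker list had a gene called for S100A8/A9 in either fit.

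**Figure D5:**
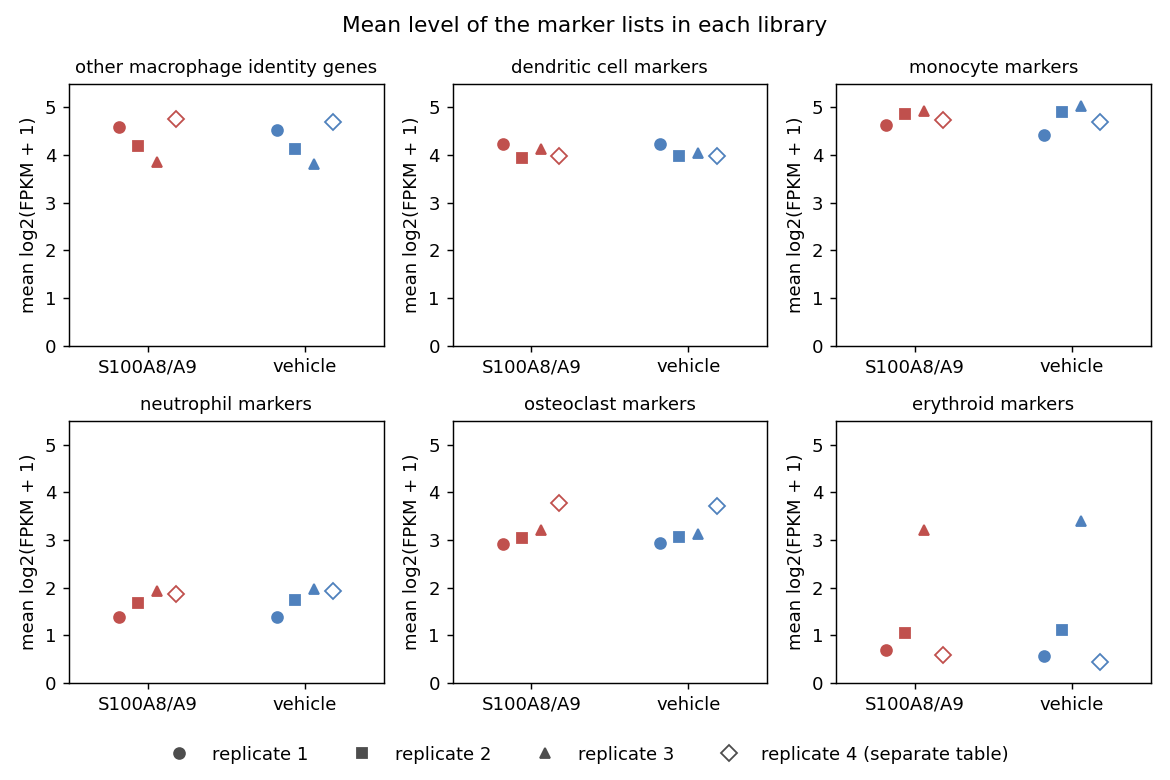
Mean log2(FPKM + 1) of 6 marker lists (vertical axes) in S100A8/A9 libraries (left, red) and vehicle libraries (right, blue), with symbols for the replicate numbers and open diamonds for replicate 4 of the separate table. Macrophage identity genes are highest in replicate 1 and lowest in replicate 3 among the filled symbols, the mean of the neutrophil markers the other way round, although 2 of their 4 called genes were highest in replicate 1, and erythroid markers stand out in replicate 3 of both groups at 3.22 with S100A8/A9 and 3.40 with vehicle.

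In replicate 4 several of the 9 genes stood at other levels than in replicates 1 to 3, and since the 2 tables were normalized separately these differences were not tested. Adgre1 had 122 FPKM with S100A8/A9 and 111 FPKM with vehicle, which is 3.19 times the S100A8/A9 mean and 3.18 times the vehicle mean of replicates 1 to 3. Spp1 had 1290 FPKM with S100A8/A9 and 1036 FPKM with vehicle, which is 3.33 times the S100A8/A9 mean and 2.83 times the vehicle mean, and it ranked 19 with S100A8/A9 and 27 with vehicle among 24388 genes. Both genes were thus high in both groups of replicate 4. Trem2 had 56.8 FPKM with S100A8/A9 and 61.4 FPKM with vehicle, at 0.542 times the S100A8/A9 mean and 0.688 times the vehicle mean. Fabp4 had 6.80 FPKM with S100A8/A9 and 6.55 FPKM with vehicle, at 0.496 times the S100A8/A9 mean and 0.578 times the vehicle mean. These 2 were below replicates 1 to 3 in both groups. Gpnmb, at 373 FPKM with S100A8/A9 and 354 FPKM with vehicle, lay between replicates 2 and 3 of each group. Maf had 4.10 FPKM with S100A8/A9, from an estimated 1128 reads, and 4.34 FPKM with vehicle, from 1140 reads. Lpl, Fabp5 and Lgals3 stayed between 0.860 and 1.06 times their group means, with Lpl at 106 FPKM with S100A8/A9 and 109 FPKM with vehicle. Fabp5 had 190 FPKM with S100A8/A9 and 178 FPKM with vehicle, and Lgals3 had 1192 FPKM with S100A8/A9 and 1227 FPKM with vehicle. Lyz2 also differed between the tables, with 23930 FPKM with S100A8/A9 and 26670 FPKM with vehicle in replicate 4.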

How the data were processed

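The values deposited by the authors are read as FPKM of Ensembl genes, because their scale fits that unit and no label or header names one. Per the submitters' processing notes, the tools were DESeq2 1.34.0, HISAT2, Subread and featureCounts and the build was mm10, with no role or order given. The authors made 2 tables: in replicate 4, 98.56% and 98.77% of low FPKM values (up to 20 reads) were whole reads within 0.01, and in replicates 1 to 3 5.35% to 6.17% were, so depth is rough there.

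The test was limma-trend (limma 3.58.1, R 4.3.3) on log2(FPKM + 1) of replicates 1 to 3, for genes reaching 1 FPKM in 3 or more of these 6 libraries, with Benjamini-Hochberg adjustment over all of them. A fold on this scale understates changes of low genes. Folds in the text are ratios of FPKM within pairs. Scripts were tested on simulated data.

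The labels do not say what a replicate number marks. Deviations from the group means correlated across genes at 0.59, 0.25 and 0.52 between libraries of the same number and from -0.53 to -0.01 between others. The deviations of a gene sum to 0 within a group, so positive values for the same number push the others below 0. The numbers were taken as pairs from the values for the same number, and a fit with the number as a block was run. That choice rests on the same data that the block fit and the F test use. Alternatives were other pseudocounts, filters, scalings, all 8 libraries and libraries left out.

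The 9 genes and the lists were chosen with earlier results of these data known. Direct partners of the 9, the 2 most abundant tested genes of a list without calls, and markers at 0 are named, except 1 partner gene that is not reported here. Symbols came from a table of Ensembl names, and positions from the GENCODE annotation of mm10.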

Additional observations from a re-analysis of the deposited data

Results flagged for a closer look

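When the 4 libraries of a group were pooled across both tables, 3 values of the 9 genes stood far from the rest of their group, by Dixon's 95% criterion, which chance meets in about 1 of 20 groups. Gpnmb in S100A8/A9 replicate 1 had 853 FPKM, against 356 to 397 FPKM in the other 3 S100A8/A9 libraries. Gpnmb in vehicle replicate 1 had 843 FPKM, against 323 to 389 FPKM in the other 3 vehicle libraries. Lgals3 in S100A8/A9 replicate 3 had 1320 FPKM, against 1176 to 1192 FPKM in the other 3 S100A8/A9 libraries.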

How the results depend on the processing

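No setting called any of the 9 genes for S100A8/A9. Of 162 values of their log2 change under alternatives, 138 kept their sign and 24 turned, the smallest adjusted p in limma being 0.132. Over all genes, where limma called 0, the replicate block called 59 and leaving out vehicle replicate 2 called 1, while the block on all 8 libraries called 0 (smallest adjusted p 0.107 in limma). Leaving out a replicate number with the block gave 42 calls without replicate 1, 95 without replicate 2 and 5 without replicate 3. The replicate block changed no call among the 9.

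For the replicate number, calls among the 9 fell to 0 with no filter on low values and ranged from 1 to 7 as a number was left out. Over all genes, where 1450 were called, they numbered 18 with no filter and 314 to 1833 as a number was left out. The other scalings and the smaller pseudocount left 6 of the 9 called.

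The log2 change turned sign with upper-quartile factors for Gpnmb (-0.012), Lpl (-0.011) and Fabp5 (-0.037), and with quantile normalization for Fabp5 (-0.026) and Lgals3 (-0.029). The sign also turned with the block for Maf without replicate 2 (0.031) and for Lgals3 without replicate 3 (-0.023). Leaving out 1 library at a time in the fit of the groups gave ranges of -0.113 to 0.428 for Adgre1, -0.267 to 0.208 for Maf, 0.009 to 0.444 for Trem2, -0.333 to 0.477 for Gpnmb, -0.137 to 0.315 for Spp1, -0.024 to 0.117 for Lpl, -0.058 to 0.532 for Fabp4, -0.155 to 0.279 for Fabp5 and 0.030 to 0.114 for Lgals3. No scaling moved the median of all genes by over 0.1. Apart from the scalings and left-out libraries named, the causes were not tested.

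With 3 libraries a group, the blocked 95% intervals reach up to a log2 change of 0.51, that of Trem2. The depth of replicates 1 to 3 is only roughly known.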

Other observations

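Relatives of the 9 genes were examined as a list of 24, of which 13 were tested and none was called for S100A8/A9 in either fit, with a median log2 change of 0.09. Lgals1, a galectin, had 112, 86.2 and 97.9 FPKM with S100A8/A9 and 120, 82.7 and 86.4 FPKM with vehicle in replicates 1 to 3. Lgals3bp, whose product binds galectin-3, had 451, 222 and 203 FPKM with S100A8/A9 and 304, 198 and 169 FPKM with vehicle. In replicate 4 its level was 169 FPKM with S100A8/A9 and 145 FPKM with vehicle. The fatty acid binding protein genes Fabp1 and Fabp2 and the osteopontin relative Ibsp were listed at 0 in replicates 1 to 3.

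Of these genes and the fatty acid list, 3 named after their values were seen came closest to the threshold with the replicate block. Lgals9, which encodes galectin-9, had 75.2, 44.7 and 36.9 FPKM with S100A8/A9 and 45.9, 35.2 and 23.9 FPKM with vehicle, with a log2 change of 0.55 and an adjusted p of 0.0595 in limma. In replicate 4 it was the lower with S100A8/A9, at 54.3 FPKM against 57.7 FPKM. Acsl1, which activates long-chain fatty acids, had 40.0, 48.9 and 65.6 FPKM with S100A8/A9 and 30.0, 37.8 and 44.9 FPKM with vehicle, with a log2 change of 0.43 and an adjusted p of 0.0547 in limma. Hilpda, which encodes an inhibitor of lipid droplet breakdown, had 8.62, 8.12 and 14.5 FPKM with S100A8/A9 and 6.04, 5.24 and 8.59 FPKM with vehicle, with a log2 change of 0.56 and an adjusted p of 0.0570 in limma. Acsl1 and Hilpda were higher with S100A8/A9 in the replicate 4 pair as well, at 18.5 and 23.5 FPKM with S100A8/A9 against 14.1 and 18.7 FPKM with vehicle.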
